A study of Rattus norvegicus with 2 samples.

Results

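The transcripts described here are 9 genes of the angiotensin, bradykinin and endothelin systems, measured in sympathetic neurons of the rat stellate ganglion. They are a fixed list of gene names, put together with earlier results of these data known, and their members are the lines Agtr1a, Agtr1b, Agtr2, Agt, Ace, Bdkrb1, Bdkrb2, Ednra and Ednrb among the 25395 genes that have a single line in the deposited values. Stellate ganglia, paired sympathetic ganglia at the base of the neck that supply the heart, were taken from male normotensive Wistar rats and from male prehypertensive SHRs (spontaneously hypertensive rats), both at 5 to 6 weeks of age, with no treatment named in the labels. Each strain gave 1 droplet single-cell library, and for each library there is 1 mean per gene over the cells of the sympathetic neuron cluster. The SHR is an inbred model with a genetic basis for hypertension, and the number of animals behind each library is not given in the sources used here. With 1 library per strain, no difference between the strains has a replicate check, and strain, animals and library preparation cannot be told apart.

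Angiotensinogen (Agt) is the precursor of angiotensin II, which angiotensin-converting enzyme (Ace) releases in the final step. Angiotensin II raises blood pressure. Its type 1 receptor, which rodents encode in the gene pair Agtr1a and Agtr1b, couples to Gq and phospholipase C, and in sympathetic neurons it is known to close M-type potassium channels and to promote noradrenaline release. The type 2 receptor (Agtr2) often opposes it. Bradykinin acts on the constitutive B2 receptor (Bdkrb2) and, after tissue injury, on the inducible B1 receptor (Bdkrb1). The B2 receptor is also known to couple to Gq and to inhibit M current in sympathetic neurons. Endothelins act on the ETA receptor (Ednra), best known from vascular smooth muscle, and the ETB receptor (Ednrb), which is prominent in endothelium and in peripheral glia.

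Levels are given as mean counts per 10000 counts of a cell. The library kit counts transcripts at their 3' end, so levels of different genes were compared without division by length. A mean over neurons does not tell a smaller share of expressing neurons from a lower level in each neuron. The lowest values show how much 1 count is worth. Genes counted only once, and in the same cell, share their value to the last deposited digit. In the Wistar library 198 values were each shared by at least 3 genes, with a median of 0.000325 per 10000, and in the SHR library 108 values, with a median of 0.000885 per 10000. These medians are used below as the approximate value of 1 count. They are a scale and not a count, since 1 count in a shallow cell is worth more. The highest shared values were 0.00776 per 10000 in Wistar and 0.0186 in SHR, so a mean below these may rest on few counts.

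The neuron cluster carried its defining transcripts in both libraries. All 12 sympathetic neuron markers were above 0, with Th, the rate-limiting enzyme of catecholamine synthesis, reaching 10.2 (Wistar) and 10.1 (SHR) per 10000. The markers were not equal between the libraries. In SHR 7 of them were lower and 5 higher, from Ddc, 51.2% lower, to Hand2, 80.5% higher. Markers of other cells were present at lower levels, and the sum of each list was lower in SHR. The 10 glial markers summed to 9.43 per 10000 in Wistar and 3.47 in SHR, the 7 fibroblast markers to 1.97 and 0.401, and the 10 immune markers to 1.32 and 0.427. The 9 endothelial markers with a line summed to 0.284 and 0.121, and the 8 smooth muscle and pericyte markers to 0.128 and 0.0731. Cd3e was listed at 0 in both libraries, and Kcnj10 and Rgs5 in SHR.

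Of the 9 genes, Agtr1a was the most abundant in both strains, Bdkrb2 was several-fold higher in SHR, and the precursor and enzyme genes were at the level of a few counts. Agtr1a made up 83.8% of the summed level of the 9 genes in Wistar and 58.7% in SHR. A mean above 0 was listed for 8 of the 9 genes in at least 1 library, and for 7 in each library. In SHR, 3 of these 8 genes were lower and 5 were higher. Agtr2, Agt and Ace are among the 5, each at 0 or a few counts, so their directions are uncertain. The approximate value of 1 count was larger in SHR (0.000885 per 10000) than in Wistar (0.000325), so equal counts would read as higher. In units of that value Ace had 1.90 in Wistar and 0.896 in SHR. Over all 16389 genes above 0 in either library, 68.1% were lower in SHR. On the scale of log2(mean + 1), the median of the SHR value minus the Wistar value was 0.00078 over the 8 genes and -0.0076 over all these genes. The median of the 8 genes falls between Ace and Agtr2 and is as uncertain as their values. Only 4 members, Agtr1a, Agtr1b, Bdkrb2 and Ednrb, had an average over both libraries of at least 0.01 per 10000. These divided evenly, with 2 lower and 2 higher in SHR. Ednrb, 1 of the lower, passed through its Wistar mean of 0.0221 per 10000, since its SHR mean, 0.00913, lay below 0.01. Of all 11632 genes past this minimum 68.4% were lower.

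**Figure D1:**
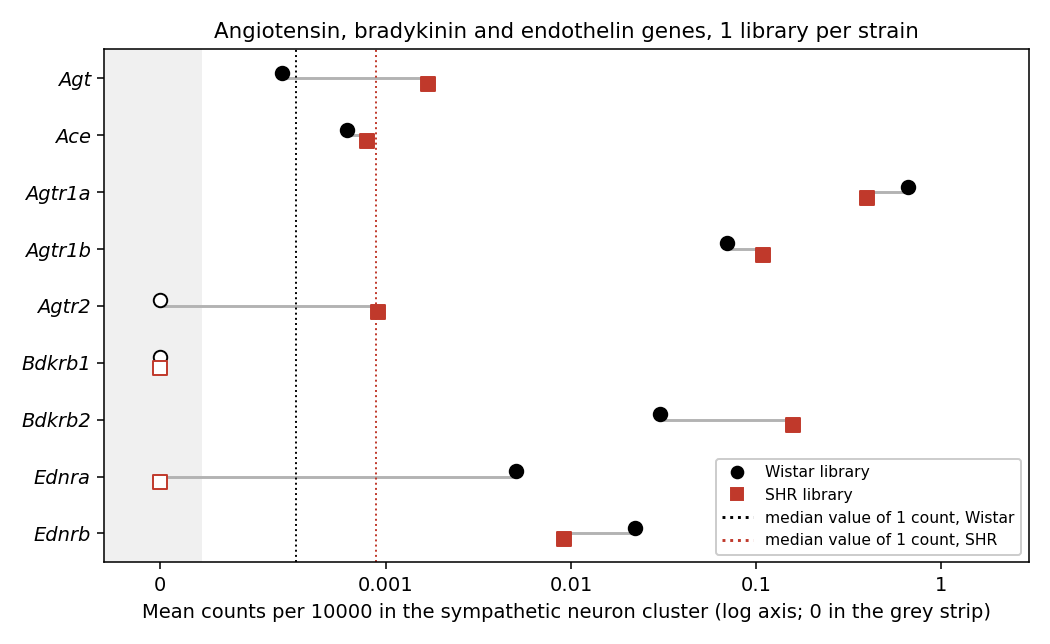
Mean counts per 10000 (log axis) of the 9 genes in the Wistar library (black circles) and the SHR library (red squares), with open symbols in the grey strip for genes listed at 0 and dotted lines at the median value of 1 count in each library. Agtr1a is highest in both libraries, Bdkrb2 shows the widest gap among the genes well above the dotted lines, and Agt, Ace and Agtr2 lie near those lines.

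The type 1 angiotensin receptor genes differed between the strains in opposite directions. The Agtr1a mean stood at 0.664 per 10000 in Wistar against 0.400 in SHR, ranking 2646 and 3503 among all genes. The SHR mean was therefore 39.7% lower, a log2(mean + 1) difference of -0.25. The marker sums of other cell types were lower in SHR too, by 43.0% for smooth muscle and pericyte markers and 79.6% for fibroblast markers. The part of other cells in the Agtr1a values was not tested. Agtr1b was less abundant, with 0.0700 per 10000 in Wistar against 0.109 in SHR. Its SHR mean was 56.1% higher, by 0.052 on the same log2 scale, where the added 1 makes differences of low genes small. In units of the approximate value of 1 count, the Agtr1a means amount to 2040 in Wistar and 452 in SHR, and the Agtr1b means to 215 and 123. The Agtr1b means may rest on far fewer counts, since the highest shared values were 0.00776 per 10000 in Wistar and 0.0186 in SHR.

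The balance of the pair was thus less tilted towards Agtr1a in SHR. The level of Agtr1a was 9.48 times that of Agtr1b in Wistar and 3.66 times in SHR, and Agtr1b made up 9.54% of the summed pair in Wistar and 21.4% in SHR. Together they reached 0.734 per 10000 in Wistar but 0.509 in SHR (log2 difference -0.20). The receptors are close paralogs, so reads from stretches that they share may have been left out or assigned to either gene, and the split between them is uncertain for that reason. Among all 11632 genes past the minimum of 0.01 per 10000, 27.8% had a lower ratio of SHR to Wistar than Agtr1a and 94.3% a lower ratio than Agtr1b.

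Each gene of the pair has its own promoter, on a different chromosome, and both are shown here because their transcripts differed in opposite directions. The sequences come from a reference assembly and not from these animals, and a link to the strain difference was not tested. The windows run from 250 bases before to 50 bases after the start of the gene in RefSeq, in the GRCr8 assembly, and are written in the direction of transcription. Capitals mark every match on either strand to the TATA box (TATAAA), the GC box (GGGCGG), the CCAAT box (CCAAT, which reads ATTGG on the other strand) and the AP-1 core (TGANTCA).
Agtr1a, chr17:34435383-34435682, minus strand: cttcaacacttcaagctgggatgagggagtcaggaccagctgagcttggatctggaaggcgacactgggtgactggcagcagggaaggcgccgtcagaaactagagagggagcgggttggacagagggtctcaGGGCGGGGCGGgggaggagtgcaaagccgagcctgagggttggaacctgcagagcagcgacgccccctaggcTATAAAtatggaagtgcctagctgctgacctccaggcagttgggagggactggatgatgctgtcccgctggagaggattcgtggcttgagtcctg
Agtr1b, chr2:104849213-104849512, minus strand: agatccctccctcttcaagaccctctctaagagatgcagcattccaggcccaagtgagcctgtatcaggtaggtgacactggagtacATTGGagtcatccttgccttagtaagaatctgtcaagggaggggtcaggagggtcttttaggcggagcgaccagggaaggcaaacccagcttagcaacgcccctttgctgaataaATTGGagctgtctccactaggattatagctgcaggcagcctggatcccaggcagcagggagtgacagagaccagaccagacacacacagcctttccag

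The Agtr1a window holds TATAAA 45 bases before the start and a pair of overlapping GGGCGG matches 117 and 112 bases before it. Neither is in the Agtr1b window, which instead holds CCAAT on the opposite strand at 163 and 48 bases before the start. None of the members' windows holds TGANTCA. Of 27457 rat promoter windows of this length, 14.3% hold TATAAA, 34.9% GGGCGG, 37.7% CCAAT and 7.33% TGANTCA. Windows were matched for 7 of the 9 members, all but Agt and Bdkrb2.

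The other angiotensin genes were close to the limit of the data. Agtr2 had no counts listed in Wistar (0) and 0.000906 per 10000 in SHR, a value it shared with 6 other genes. The Wistar value of Agt was 0.000275 per 10000, shared with 3 other genes, and its SHR value was 0.00169, shared with 15 other genes. Each of these values can thus be a single count in a single neuron, and no fold change is given for them. Ace stood at 0.000617 per 10000 (Wistar) and 0.000792 (SHR), the latter shared with 10 other genes. At this depth the neuron cluster showed the angiotensin II receptor of type 1, whereas transcripts of the precursor, of the converting enzyme and of the type 2 receptor were at 0 or at most a few counts.

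The bradykinin receptor gene Bdkrb2 showed the largest relative difference among the 4 genes past the minimum. Its mean was 0.0305 per 10000 in Wistar but 0.159 in SHR, so that the SHR mean was 5.23 times the Wistar mean, which is 0.17 on the log2(mean + 1) scale. Among all genes it ranked 10233 in Wistar and 5990 in SHR. In units of the approximate value of 1 count these means amount to 93.7 in Wistar and 180 in SHR. They may rest on far fewer counts, since the highest shared values were 0.00776 per 10000 in Wistar and 0.0186 in SHR. Of the 11632 genes past the minimum, 2.11% were at least 2-fold higher in SHR, and Bdkrb2 stood in place 39 from the highest ratio. The sums of the marker lists of all 5 other cell types were lower in the library in which Bdkrb2 and Agtr1b were higher. Of the 9 endothelial markers 7 were lower in SHR. Tek (0.0202 per 10000 in Wistar, 0.0512 in SHR) and Emcn (0.00843 in Wistar, 0.0163 in SHR) were higher. The part of other cells in the Bdkrb2 and Agtr1b values was not tested. Bdkrb1, the inducible receptor, was listed at 0 in both libraries.

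**Figure D2:**
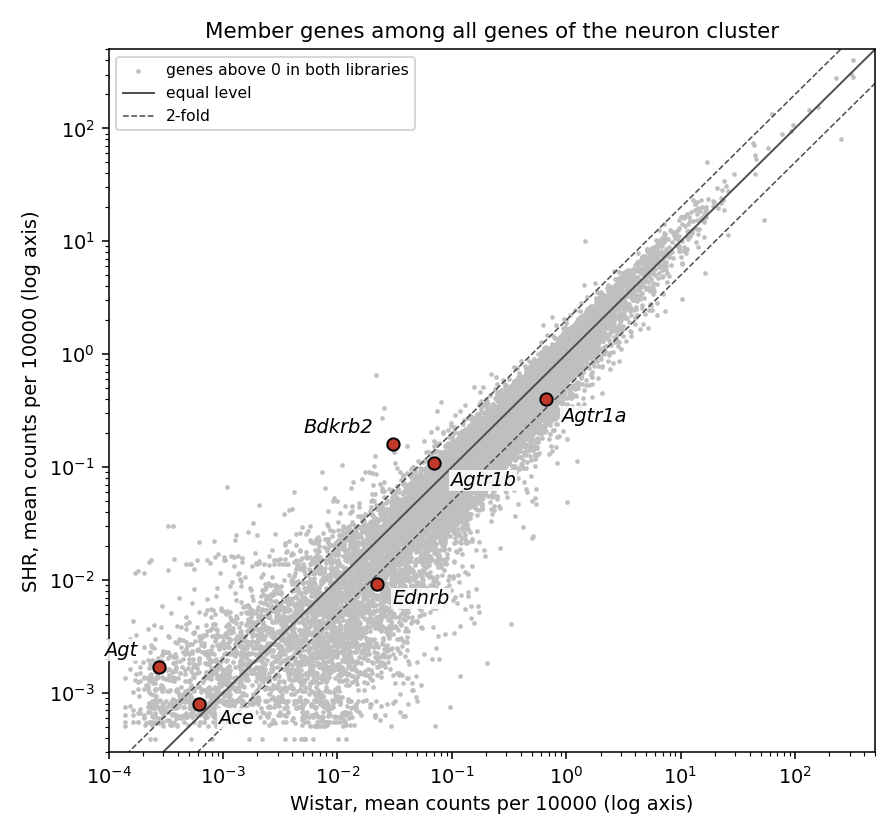
Mean counts per 10000 in SHR against Wistar (log axes) for each gene above 0 in both libraries (grey), with the 6 members that are above 0 in both (red), the line of equal level and dashed lines at 2-fold. Bdkrb2 lies above the upper dashed line, at 0.159 against 0.0305 per 10000, Agtr1a lies between the line of equal level and the lower dashed line, and the cloud widens towards low levels.

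The endothelin receptor genes were low in the neuron cluster and lower in SHR. The Ednrb mean was 0.0221 per 10000 for Wistar against 0.00913 for SHR, which is 58.6% lower. These means amount to 67.9 and 10.3 times the approximate value of 1 count. The SHR mean lies below the highest shared value of that library, 0.0186 per 10000, so it may rest on fewer counts. Among all genes past the minimum, 19.1% were at least 2-fold lower in SHR. All 10 glial markers were lower in SHR, those above 0 in both libraries by between 39.6% and 82.5%. Of the 10, 8 were lower by more than Ednrb, whereas Mbp (39.6%) and Fabp7 (48.4%) were lower by less. For each 100 counts of the glial marker sum, Ednrb had 0.234 in Wistar and 0.263 in SHR. The sum of the endothelial markers was 57.5% lower in SHR. The parts of glial and endothelial transcripts in the Ednrb values were not tested. For Ednra the Wistar value was 0.00505 per 10000, about 15.5 times the approximate value of 1 count, and the SHR value was 0. The Wistar value lies below the highest shared value of that library, 0.00776 per 10000, and may rest on fewer counts.

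By the rule of size, a mean at least 2-fold lower or higher, Ednra and Ednrb were lower and Bdkrb2 was higher in SHR. The Ednra value in Wistar and the Ednrb value in SHR may rest on few counts, so the calls of both are uncertain. Applied to every gene above 0 in either library, the rule also counts Agtr2 and Agt as higher, 5 members in all, but their values can be a single count and give no fold. Over the 16389 such genes it gave 29.7% lower and 7.63% higher, a share that likewise includes genes of a few counts. Agtr1a and Agtr1b did not reach 2-fold.

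The remaining genes of the pathways were taken from lists of known components. Of 60 such genes with a line, 42 had an average of at least 0.01 per 10000, and 33 of these were lower and 9 higher in SHR, against the 68.4% of all genes that were lower. In the angiotensin list 8 of 9 genes past the minimum were lower. Atp6ap2, an accessory subunit of the V-ATPase, was its most abundant gene, with 5.77 (Wistar) and 4.29 (SHR) per 10000. Ctsd, the lysosomal protease cathepsin D, followed with 4.12 and 3.02. The genes Mas1, Mrgprd, Lnpep and Cma1 were listed at 0 in both libraries.

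In the kallikrein-kinin list 5 of 6 genes past the minimum were lower in SHR, against 68.4% of all genes past it. Cpe, a carboxypeptidase of peptide hormone processing, had 3.48 (Wistar) and 3.40 (SHR) per 10000. Xpnpep1, an aminopeptidase that can inactivate bradykinin, had 1.03 and 0.738. The kininogen gene Kng1 and the kallikrein genes Klkb1 and Klk1 were listed at 0 in both libraries, whereas the B2 receptor transcript was above 0 in both.

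In the endothelin list a ligand gene stood well above both receptors. Edn3, which encodes endothelin 3, the ligand of the ETB receptor in neural crest development, had 0.634 (Wistar) and 0.238 (SHR) per 10000, which is 62.5% lower. The marker sums of other cell types were lower too, by 63.1% for glial, 67.8% for immune, 57.5% for endothelial and 79.6% for fibroblast markers. The smooth muscle and pericyte sum was 43.0% lower. The part of other cells in the Edn3 values was not tested. Edn1 was above 0 in Wistar alone, with 0.000327 per 10000, and Edn2 was listed at 0 in both. Ecel1, a neuronal endopeptidase related to the converting enzymes, had 1.72 and 1.37 per 10000, and the converting enzyme gene Ece2 had 1.67 and 0.865, which is 48.2% lower. Of the 6 genes past the minimum 5 were lower in SHR, against 68.4% of all genes past it. The exception, Ece1, had 0.650 and 0.716.

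**Figure D3:**
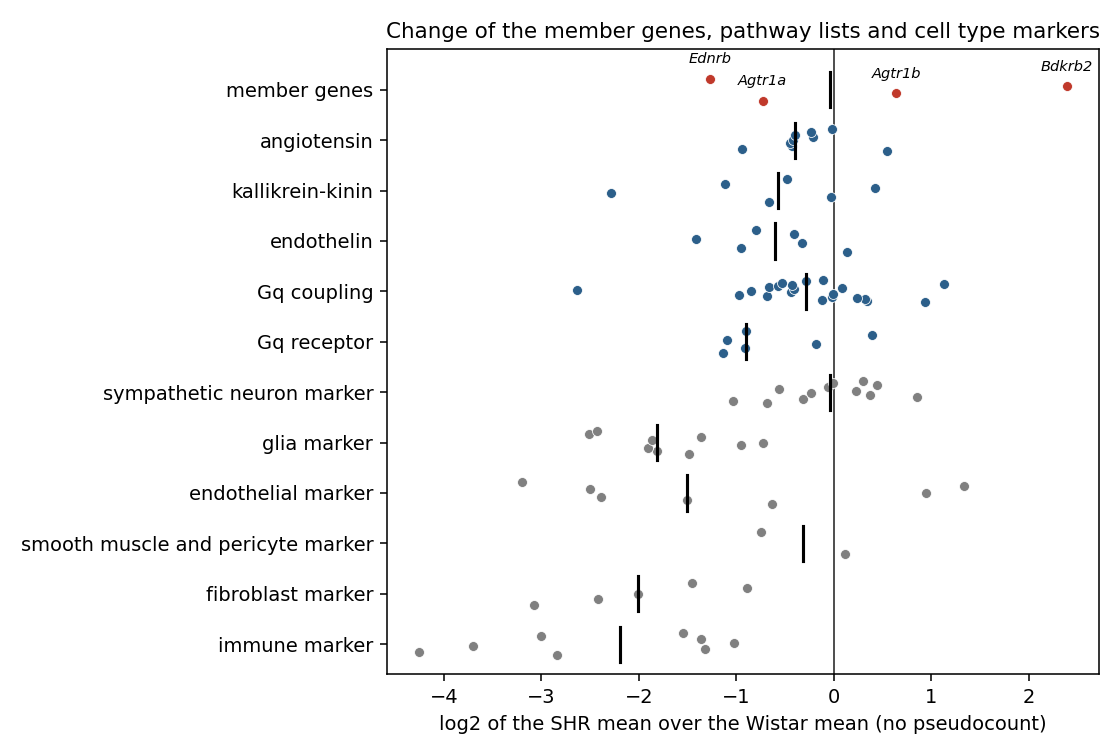
Log2 of the SHR mean over the Wistar mean, with no pseudocount, for each gene with an average of at least 0.01 per 10000 and a mean above 0 in both libraries; red points are members, blue points pathway lists, grey points cell type markers, and black bars the median of each list. Agtr1b and Bdkrb2 lie to the right of 0 and Agtr1a and Ednrb to the left, and the glial, fibroblast and immune markers past the minimum all lie to the left.

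Downstream of these receptors, 15 of 21 Gq coupling genes past the minimum were lower in SHR and 6 were higher. That share is close to the 68.4% of all genes past the minimum that were lower. Plcb4, a phospholipase C beta gene, had 5.82 (Wistar) and 3.66 (SHR) per 10000, and Rgs4, which shortens Gq and Gi signals, had 5.30 and 4.91. Prkcd, a protein kinase C gene, was at 0.0697 (Wistar) and 0.153 (SHR) per 10000, 2.19 times the Wistar mean, and with Edn3 and Lpar1 it was the only listed pathway gene with an average of at least 0.1 per 10000 that differed by 2-fold or more.

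Set among 24 receptor genes known to couple to Gq, the 6 type 1 angiotensin, bradykinin and endothelin receptor genes included, Agtr1a took place 2 in both strains. F2r, a thrombin receptor gene, took place 1 with 2.15 (Wistar) and 1.90 (SHR) per 10000. Lpar1, a lysophosphatidic acid receptor gene, took place 3 in Wistar with 0.222 per 10000 and place 5 in SHR with 0.104. Bdkrb2 took place 7 in Wistar and place 3 in SHR, and Agtr1b place 5 and place 4. Lpar1, at 0.104 per 10000, lay just below Agtr1b, at 0.109, in SHR, a gap too small to order them without replicates. Without the members, 5 of 6 such receptor genes past the minimum were lower in SHR, against 68.4% of all genes past it.

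The genes nearest to Agtr1a in level in both libraries were Slc23a2, Cdk10 and Wbp1l, at log2 distances of 0.019, 0.024 and 0.026 over the 2 libraries. Slc23a2, a vitamin C transporter gene, had 0.664 (Wistar) and 0.405 (SHR) per 10000. With only 2 libraries this likeness is a description of level.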

How the data were processed

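Stellate ganglion cells were sequenced with 10x Genomics 3' v3 chemistry. The submitters' processing notes name Cell Ranger 3.0.2, Seurat 3, DESeq2 and the build Rnor_6.0. The values deposited by the authors are on a natural log scale, the log of 1 plus the mean count per 10000 over the neuron cluster, and converted back they sum to 10000 in each library. A further deposited table holds only the authors' comparison of the strains and was not used. Filters on cells, doublet treatment and neuron numbers are not given in the sources used here, and doublets cannot be sought in means.

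Lines with a repeated name (4) were dropped. Log2 differences are differences of the deposited logs divided by the natural log of 2, equal to a pseudocount of 1 per 10000. With 1 library per strain there is no test and no error, and a fold of 2 served as the rule of size. Shared values, at least 3 genes each, left out multiples of 2 to 5 of a smaller one within 2e-09 per 10000, and the step was tested on simulated data. Named pathway genes are the 2 most abundant of each list and those with an average of at least 0.1 per 10000 that differ by 2-fold, and others were named after their values were seen. Some genes of the pathway lists are not reported here. The members and lists were chosen with earlier results of these data known. Python 3.11.15, NumPy 2.4.6, pandas 2.3.3 and Matplotlib 3.10.9 were used. Alternatives were other pseudocounts, scalings, minimums and folds.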

Additional observations from a re-analysis of the deposited data

How the results depend on the processing

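No paired analysis was possible because there is 1 library for each strain. A pseudocount cannot turn the sign of a difference. The 2 scalings could not turn Agtr1a, Agtr1b or Bdkrb2 either, since the shares they left out were small or similar in both libraries. Mitochondrial and ribosomal protein genes made up 19.3% of the total in Wistar and 21.6% in SHR. Markers of other cell types made up 0.131% and 0.045%. Log2 differences ranged with the pseudocount (10 to 0.01 per 10000). They ran from -0.036 to -0.72 for Agtr1a, from 0.0056 to 0.58 for Agtr1b and from 0.018 to 2.07 for Bdkrb2. Centring on the median of the genes with an average of at least 0.1 per 10000 adds 0.052 to each gene by construction, which turned the differences of Ednra and Ednrb, small on this scale at any fold, to 0.045 and 0.034. On the plain ratio, centring on the median of the same genes moved the log2 ratio of Ednrb from -1.27 to -1.06, which is still lower in SHR. The number of members lower in SHR, 3, became 1 with a minimum of 0.1 per 10000, where Agtr1a is the only member left, and the members' median log2 difference then became -0.25. That median became 0.074 with a pseudocount of 0.01. The 5 members past 2-fold became 3 without Agtr2 and Agt, an alternative chosen after seeing the data, as was the sum of the Agtr1 pair. Under the other alternatives these counts were within 1.5 times. The number of neurons and the counts per neuron are unknown, so counting error has no stated size. It weighs most on Ednra, Ednrb, Agt, Ace and Agtr2, and for Agtr1b and Bdkrb2 it may also be large.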
